A study of Mus musculus with 10 samples.

Results

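The 9 genes described here encode the 3 inositol 1,4,5-trisphosphate (IP3) receptors (Itpr1, Itpr2 and Itpr3), the 3 voltage-dependent anion channels (Vdac1, Vdac2 and Vdac3) and 3 proteins of calcium handling at the inner mitochondrial membrane (Mcu, Micu2 and Letm1). They were chosen by name, and each was 1 of 50600 gene entries in the expression tables of 10 mouse RNA-seq libraries. The study compared mouse models of acute myeloid leukemia (AML) with normal cKit+ bone marrow cells, and with each other. All mice were C57BL/6, and each library came from 1 mouse. WT 1 and WT 2 were female bone marrow selected for cKit. Cbfb::MYH11 30 and 27 were spleen tumors of female mice with the genotype Mx+; Hygr+, given Poly IC at postnatal day 45 to switch on the fusion through Mx1-Cre, whose interferon-responsive promoter is not confined to blood cells. The label of cell selection is cKit+ for Cbfb::MYH11 27 and cKit_ for Cbfb::MYH11 30, and the meaning of the second form was not resolved. MLL::AF9 2, 47 and 42 were untreated spleen tumors of MLL-AF9 +/- mice, from a male, a female and a male in that order, although the file names of the deposited tables swap 42 and 47. MLL::ENL NO, RL and L were untreated spleen tumors, from females for NO and RL and with no sex given for L. They arose after progenitors transduced by retrovirus were transplanted with WT marrow into lethally irradiated WT mice. The MLL tumors were selected with Mac1, Gr1 and cKit. No age at sampling is given in the labels. The study's methods give Poly IC to littermate controls as well, but whether these are the WT mice is not stated. Bone marrow against spleen, the markers used for cell selection and the way each tumor was made go with condition and cannot be told apart from it. Sex goes with condition in part, since males are given only among the MLL::AF9 mice.

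IP3 receptors are calcium channels of the endoplasmic reticulum (ER) that open when phospholipase C makes IP3, and at contact sites they pass calcium to mitochondria. VDACs are the main pores of the outer mitochondrial membrane for metabolites and ions, calcium included. The uniporter, whose pore is Mcu, takes calcium across the inner membrane under the control of gatekeepers such as Micu2, and calcium in the matrix stimulates dehydrogenases that feed respiration.

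The library totals ran from 12134917 to 20510574 expected counts. Levels are given as CPM, counts relative to a total scaled by the trimmed mean of M values (TMM), for comparisons between libraries, and as deposited TPM, which is per length, for comparisons between genes. Summed CPM of 5 eosinophil markers was 16304 and 6181 in WT 1 and WT 2 and at most 107 in the tumors. Most of the WT sum was Prg2, at 14744 and 4954 CPM. Siglecf of this list was higher in Cbfb::MYH11 30 and 27, at 90.2 and 59.9 CPM, than in WT, at 23.8 CPM in both libraries. It was between 2.07 and 61.7 CPM in the MLL tumors. The summed CPM of 8 neutrophil markers was 131611 and 76322 in WT 1 and WT 2, 198 and 78.6 in Cbfb::MYH11 30 and 27, and between 3502 and 155006 in the MLL tumors. Ly6g, which marks mature neutrophils, was at 333 and 204 CPM in the WT libraries labelled cKit+. The 6 mast cell and basophil markers summed to 1928 and 2541 CPM in Cbfb::MYH11 and to at most 527 CPM elsewhere, through Ms4a2, Fcer1a and Cpa3, whereas the basophil genes Mcpt8 and Prss34 were at 3.14 CPM or less in Cbfb::MYH11 and 23.5 CPM or more in WT. The 8 red cell markers summed to 206785 and 42050 CPM in WT and at most 10193 CPM in the tumors, most of it globin. Klf1 and Epor of this list were at 150 and 224 CPM and at 62.7 and 74.5 CPM in Cbfb::MYH11, against 250 and 151 CPM and 82.9 and 49.5 CPM in WT and 2.78 CPM or less in the MLL tumors. In bulk RNA, fewer cells of a type and less RNA per cell cannot be told apart. Kit was at 186 and 290 CPM in Cbfb::MYH11, 65.6 and 88.6 CPM in WT and between 31.2 and 119 CPM in the MLL tumors, and Itgam, a chain of Mac1, was at 10.96 and 6.04 CPM in Cbfb::MYH11 and at 342 CPM or more in every other library.

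WT 1 also stood apart by transcript length. Relative to the mean of all libraries, the median gene of WT 1 was 0.76 higher on the log2 CPM scale among transcripts under 1000 bases and −0.85 among those over 6500 bases. The median over 6500 bases was −0.13 in WT 2 and between −0.26 and 0.49 in the tumors. The deposited transcript lengths averaged 5664 bases for Itpr1, 9699 for Itpr2 and 8990 for Itpr3, against 1977, 1839 and 1331 for Vdac1, Vdac2 and Vdac3 and 2823, 2310 and 4393 for Mcu, Micu2 and Letm1. A fit with an offset for this trend in each library, added after seeing the data, was therefore also made.

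**Figure D1:**
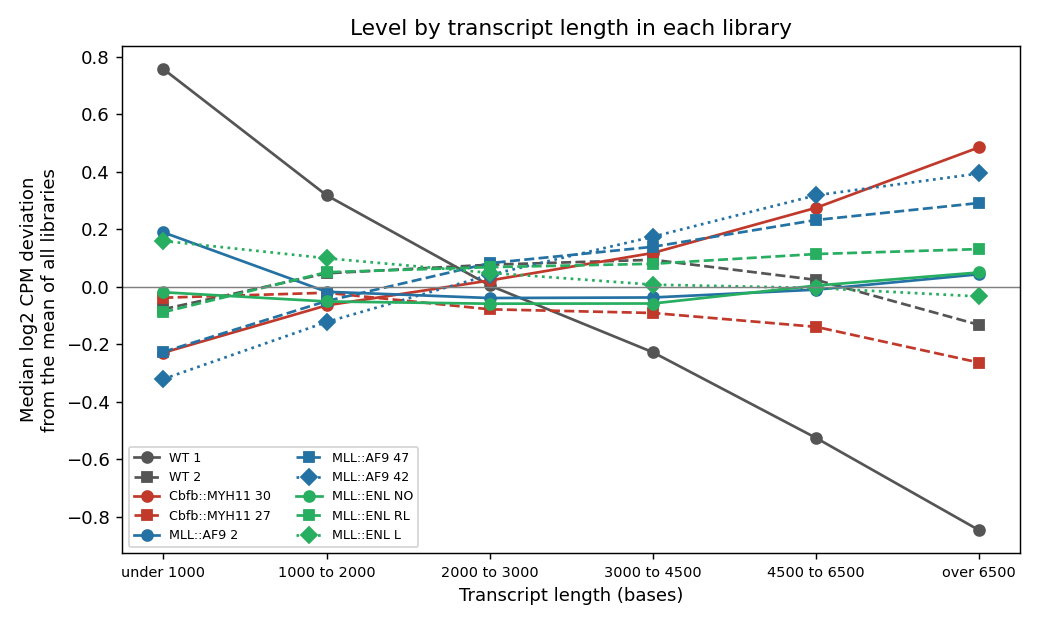
Median log2 CPM deviation from the mean of all 10 libraries (y axis) in 6 classes of transcript length in bases (x axis), 1 line per library, colored by condition. WT 1 falls from 0.76 in the shortest class to −0.85 in the longest, while WT 2 ends at −0.13.

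Transcripts of the 3 IP3 receptors were more abundant in Cbfb::MYH11 than in WT, by 2.51 to 2.67 on the log2 scale. In MLL::AF9 tumors Itpr3 passed the test as higher (adjusted p = 0.0442, edgeR), while Itpr1, with a larger change, fell just short (0.0529, edgeR). None passed the test in MLL::ENL tumors. Passing means an adjusted p under 0.05 in edgeR's quasi-likelihood test over 14875 genes, and SE is the standard error of a log2 fold change. On mm10, Itpr1 lies on chromosome 6 from 108213096 to 108551109, Itpr2 on chromosome 6 from 146108299 to 146502223, and Itpr3 on chromosome 17 from 27057304 to 27122223.

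Itpr1 encodes the receptor best known from neurons of the cerebellum. It was at 9.0 and 16.4 CPM in WT 1 and WT 2, at 109 and 52.4 CPM in Cbfb::MYH11 30 and 27, at 57.7, 76.1 and 75.8 CPM in MLL::AF9 2, 47 and 42, and at 15.0, 54.2 and 44.2 CPM in MLL::ENL NO, RL and L. In CPM every tumor library but MLL::ENL NO was above both WT libraries, and the Cbfb::MYH11 libraries lay on either side of the MLL::AF9 libraries. Against WT the log2 fold change was 2.66 in Cbfb::MYH11 (SE 0.60, adjusted p = 0.0229, edgeR), 2.46 in MLL::AF9 (adjusted p = 0.0529, edgeR) and 1.57 in MLL::ENL (adjusted p = 0.14, edgeR). The MLL::AF9 value lay at the threshold. It passed in edgeR with median-of-ratios scaling (adjusted p = 0.0483), without the count filter (0.00325) and with only the groups compared (0.0495). In DESeq2 it passed too (adjusted p = 0.000375). With the length offset the fold changes were 2.33 (adjusted p = 0.0199, edgeR), 2.0 and 1.28, and only Cbfb::MYH11 passed. Its call was lost without WT 1 (adjusted p = 0.187), without WT 2 (0.0723) and without Cbfb::MYH11 30 (0.128), all from edgeR.

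Itpr2 encodes the receptor with the highest affinity for IP3, which is prominent in heart and liver. Its levels were 10.1 and 21.6 CPM in WT, 102 and 78.8 CPM in Cbfb::MYH11, 60.4, 20.6 and 20.1 CPM in MLL::AF9 and 43.7, 19.0 and 20.4 CPM in MLL::ENL, with the libraries in the order given above. Both Cbfb::MYH11 libraries were above all 8 others. Within each MLL model 1 library, MLL::AF9 2 and MLL::ENL NO, was over 2 times the others in CPM, though not in TPM. These libraries had the highest neutrophil sums of their models, 155006 and 60510 CPM, while the WT libraries had low Itpr2 at sums of 131611 and 76322 CPM, and the part of these cells in the Itpr2 level was not tested. The log2 fold change over WT was 2.51 in Cbfb::MYH11 (SE 0.66, adjusted p = 0.0403, edgeR), 1.08 in MLL::AF9 and 0.80 in MLL::ENL (adjusted p = 0.287 and 0.449, edgeR). With the length offset the Cbfb::MYH11 value was 1.91 and did not pass (adjusted p = 0.102, edgeR), and those of MLL::AF9 and MLL::ENL were 0.40 and 0.21. The call was also lost without WT 1 (log2 fold change 2.07, adjusted p = 0.252), WT 2 (0.0808), Cbfb::MYH11 30 (0.144), Cbfb::MYH11 27 (0.107), MLL::ENL RL (0.0514) or MLL::ENL L (0.0505), all from edgeR.

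Itpr3 encodes the receptor often found at contacts between ER and mitochondria. It was at 7.34 and 10.4 CPM in WT, 62.9 and 49.8 CPM in Cbfb::MYH11, 32.5, 42.9 and 32.9 CPM in MLL::AF9 and 27.5, 15.5 and 44.7 CPM in MLL::ENL. All 8 tumor libraries were above both WT libraries, and in CPM both Cbfb::MYH11 libraries were above the 6 MLL libraries. In TPM, MLL::AF9 47 at 6.92 and MLL::ENL L at 5.95 were above Cbfb::MYH11 27 at 5.61. Over WT the log2 fold change was 2.67 in Cbfb::MYH11 (SE 0.47, adjusted p = 0.00825, edgeR), 2.03 in MLL::AF9 (SE 0.44, adjusted p = 0.0442, edgeR) and 1.72 in MLL::ENL (adjusted p = 0.0694, edgeR). With the length offset the Cbfb::MYH11 value was 2.05 and still passed (adjusted p = 0.029, edgeR), whereas the MLL::AF9 value was 1.23 and did not (adjusted p = 0.148, edgeR), and the MLL::ENL value was 1.14. The Cbfb::MYH11 call was lost without WT 1 (adjusted p = 0.0821, edgeR) and held without any other library. The MLL::AF9 call held without MLL::ENL RL or L and was lost without each of the other 8 libraries, with an adjusted p of up to 0.354 from edgeR without WT 1. The MLL::AF9 call was also lost in limma voom (adjusted p = 0.0578) and with only the groups compared (0.0591, edgeR). The antisense entry Itpr3os, which overlaps this locus, had 0 counts in every library.

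The median log2 fold change over WT of all transcripts over 6500 bases, the class of Itpr2 and Itpr3, was 0.65 in Cbfb::MYH11, 0.79 in MLL::AF9 and 0.56 in MLL::ENL. For the class from 4500 to 6500 bases, which holds Itpr1, it was 0.37, 0.52 and 0.32. The IP3 receptor values of all 3 tumor models, called or not, were above the medians of their classes. Their rank within a class was not taken, and the part of the length trend in them was not tested. Between tumor models the same classes differed by at most 0.17.

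**Figure D2:**
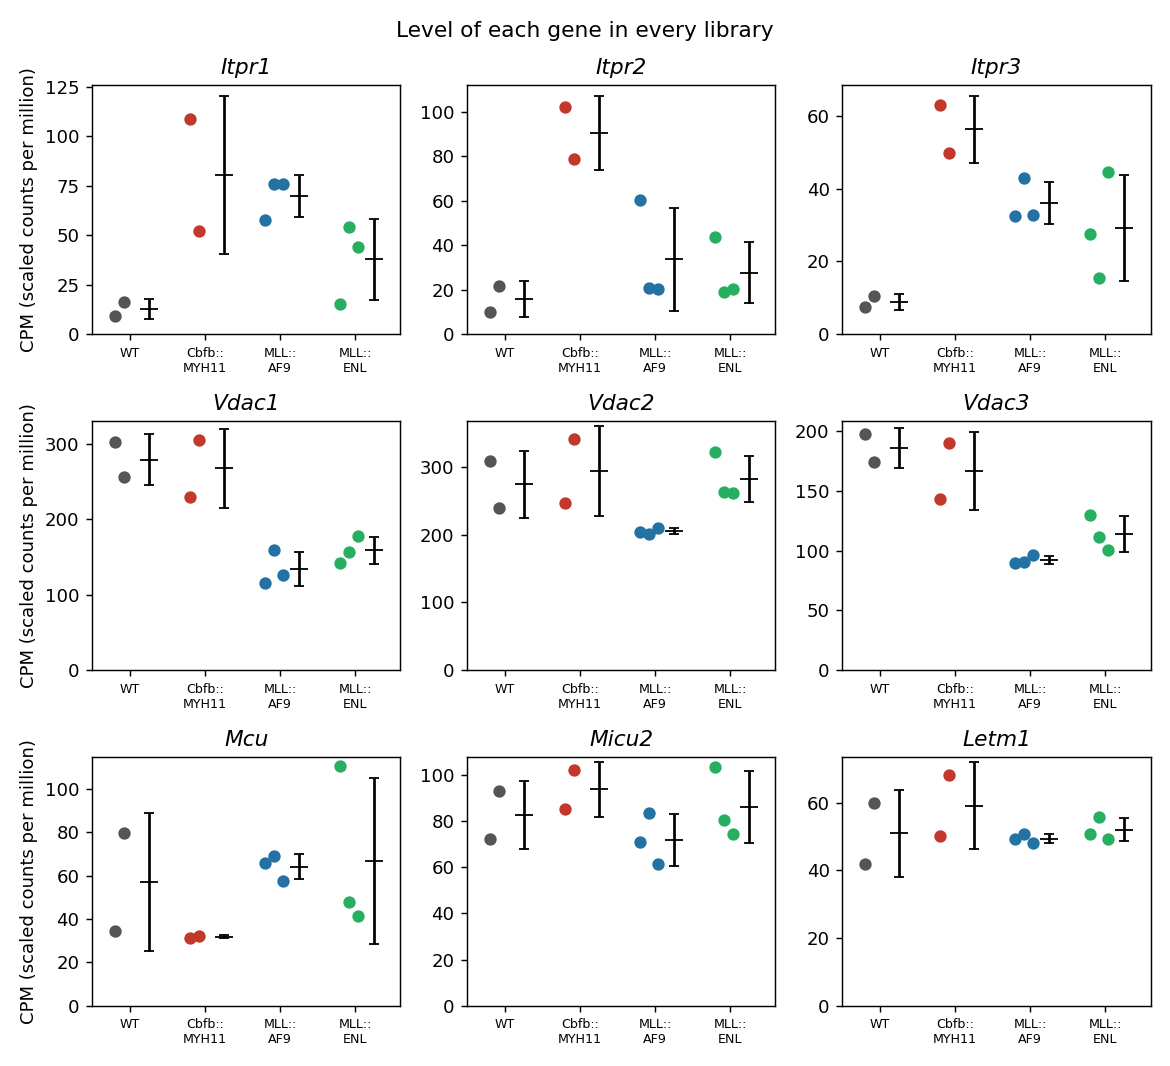
CPM (y axis, from 0) of the 9 genes in each of the 10 libraries, 1 point per library, grouped by condition, with the mean and SD of each group in black. Itpr3 is above both WT libraries in all 8 tumors, and Vdac1 and Vdac3 are lowest in the 6 MLL tumors.

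In the direct comparison of tumor models, Itpr2 was 1.43 higher on the log2 scale in Cbfb::MYH11 than in MLL::AF9 (95% interval 0.17 to 2.68, adjusted p = 0.0947, edgeR). Against MLL::ENL the difference was 1.71 (95% interval 0.45 to 2.97, adjusted p = 0.0591, edgeR). Neither passed, nor did those of Itpr1 (0.21 and 1.09) and Itpr3 (0.64 and 0.95). By group mean of CPM, each IP3 receptor was highest in Cbfb::MYH11, then MLL::AF9, MLL::ENL and WT, and no pair of neighbors in that order differed beyond the test's threshold.

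The sequence just upstream of the start is shown for the IP3 receptors whose promoters are in the RefSeq table used (GRCm38.p6), and for 1 start of Vdac1. Of the 9 genes 6 had an entry there, without Itpr1, Vdac2 and Vdac3. Each window is 250 bases long, on the strand of the gene, and ends at the base before the start. Capitals mark matches on either strand to the box CCAAT, to the GC box, which reads GGGCGG, or to the E-box, which reads CACGTG, which were in 33.8%, 32.7% and 6.02% of 32851 promoter windows of the same length.
Itpr2, chr6:146502224-146502473, minus strand: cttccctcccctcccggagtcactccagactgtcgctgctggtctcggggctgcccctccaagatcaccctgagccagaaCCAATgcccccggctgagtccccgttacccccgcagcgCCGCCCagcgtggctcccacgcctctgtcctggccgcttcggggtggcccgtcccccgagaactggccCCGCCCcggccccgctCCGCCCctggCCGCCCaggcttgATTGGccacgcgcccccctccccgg
Itpr3, chr17:27057054-27057303, plus strand: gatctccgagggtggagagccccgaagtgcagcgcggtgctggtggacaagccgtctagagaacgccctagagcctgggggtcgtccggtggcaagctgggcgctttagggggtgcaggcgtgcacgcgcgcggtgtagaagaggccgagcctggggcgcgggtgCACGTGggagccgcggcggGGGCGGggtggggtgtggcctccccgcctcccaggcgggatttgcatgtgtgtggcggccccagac
Vdac1, chr11:52360601-52360850, plus strand: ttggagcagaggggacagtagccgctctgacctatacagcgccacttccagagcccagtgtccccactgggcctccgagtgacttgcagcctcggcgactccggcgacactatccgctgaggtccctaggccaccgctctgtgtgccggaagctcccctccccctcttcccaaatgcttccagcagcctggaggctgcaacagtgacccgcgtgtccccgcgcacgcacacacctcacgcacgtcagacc
Itpr2 had 2 matches to CCAAT, at 170 and 25 bases before the start, and 4 to the GC box. Itpr3 had 1 match to the GC box and 1 to the E-box, at 66 and 85 bases before the start, and none of these matches overlapped. The 3 motifs were not in this Vdac1 window, while a second Vdac1 start had 3 matches to the GC box. Members that passed in no comparison had matches too. CCAAT was at 115 and 66 bases before the start of Mcu and at 53 in Letm1. The GC box was at 11 in Micu2 and at 96, 70 and 23 in Letm1. Whether these motifs go with a change in level was not tested. The G and C content was 74.4% for Itpr2, 72.0% for Itpr3 and 65.2% for Vdac1, against a median of 52.4% over all windows. The TATA box TATAAA, which was in 12.4% of all windows, had no match in the 3 windows, nor had the CRE, ETS, NRF1 and ZNF143 motifs that were also searched on both strands.

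No VDAC passed as higher than in WT in any tumor model. Vdac1 and Vdac3 were higher in Cbfb::MYH11 than in MLL::AF9, Vdac3 was lower in MLL::AF9 than in WT, and Vdac2 passed in no comparison. On mm10, Vdac1 lies on chromosome 11 from 52360860 to 52389397, Vdac2 on chromosome 14 from 21831269 to 21845879, and Vdac3 on chromosome 8 from 22577086 to 22593758.

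Vdac1, the most studied pore and a docking site for hexokinase, was at 303 and 255 CPM in WT, 230 and 304 CPM in Cbfb::MYH11, 116, 160 and 126 CPM in MLL::AF9 and 141, 157 and 177 CPM in MLL::ENL. In CPM all 6 MLL libraries were below all 4 others, and WT and Cbfb::MYH11 overlapped. In TPM this did not hold. WT 1, at 80.7, was below MLL::AF9 47 at 128, and Cbfb::MYH11, at 146 and 173, was above both WT libraries. Vdac1 was 1.00 higher on the log2 scale in Cbfb::MYH11 than in MLL::AF9 (SE 0.25, adjusted p = 0.0212, edgeR), and 0.75 higher than in MLL::ENL without passing (adjusted p = 0.0649, edgeR). With the length offset these were 1.14 (adjusted p = 0.00715, edgeR) and 0.93, which then passed (adjusted p = 0.0171, edgeR). The first call was lost without Cbfb::MYH11 27 (adjusted p = 0.189) or MLL::AF9 42 (0.0643), both from edgeR. Against WT the log2 fold change was −0.06 in Cbfb::MYH11, −1.06 in MLL::AF9 (adjusted p = 0.0556, edgeR) and −0.82 in MLL::ENL (adjusted p = 0.111, edgeR). With the offset these were 0.15, −0.99 and −0.78, and none passed.

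Vdac3, the least understood of the pores, followed the same pattern, at 198 and 174 CPM in WT, 143 and 190 CPM in Cbfb::MYH11, 89.5, 90.4 and 96.1 CPM in MLL::AF9 and 130, 112 and 101 CPM in MLL::ENL. Again all 6 MLL libraries were below the 4 others in CPM. In TPM, WT 1 was at 84.2, below MLL::ENL RL at 126. It was lower in MLL::AF9 than in WT, by a log2 fold change of −1.01 (SE 0.23, adjusted p = 0.0496, edgeR), and higher in Cbfb::MYH11 than in MLL::AF9, by 0.86 (SE 0.23, adjusted p = 0.0262, edgeR). The call against WT lay at the threshold. It was lost without each of the 10 libraries in turn, with adjusted p from 0.0509 without MLL::ENL NO to 0.318 without WT 1, and with the length offset (log2 fold change −0.73, adjusted p = 0.116), all from edgeR. The call against Cbfb::MYH11 held with the offset (0.87, adjusted p = 0.0242) and was lost without Cbfb::MYH11 27 (0.221), MLL::AF9 47 (0.0557) or MLL::AF9 42 (0.0601), from edgeR. The pseudogene entry Vdac3-ps1 was assigned 2.13 to 34.4 expected counts per library, against at least 1266 for Vdac3. How many reads fit both and were divided between them is not known, so Vdac3 values are uncertain to that extent.

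Vdac2, known for holding the apoptosis effector Bak at the outer membrane, was at 309 and 239 CPM in WT, 246 and 341 CPM in Cbfb::MYH11, 204, 201 and 210 CPM in MLL::AF9 and 322, 264 and 261 CPM in MLL::ENL. In CPM the MLL::AF9 libraries were the lowest 3 of the 10, and the other groups overlapped. In TPM, WT 1 was at 89.1, below MLL::AF9 47 at 180. No comparison passed. The nearest were MLL::AF9 against MLL::ENL (log2 fold change −0.46, 95% interval −0.97 to 0.05) and Cbfb::MYH11 against MLL::AF9 (0.52, 95% interval −0.05 to 1.08, adjusted p = 0.165, edgeR).

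At the inner membrane, none of Mcu, Micu2 and Letm1 passed in any of the 6 comparisons. Mcu, the pore of the uniporter, lies on chromosome 10 from 59446984 to 59616692. It was at 34.7 and 79.7 CPM in WT, 31.2 and 32.2 CPM in Cbfb::MYH11, 65.6, 69.2 and 57.7 CPM in MLL::AF9 and 111, 47.7 and 41.6 CPM in MLL::ENL. Both Cbfb::MYH11 libraries were below the 8 others, with WT 1 close above them. The log2 fold change was −1.02 against MLL::AF9 (95% interval −2.07 to 0.03, adjusted p = 0.145, edgeR) and −1.07 against MLL::ENL (95% interval −2.12 to −0.01, adjusted p = 0.141, edgeR).

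Micu2, a calcium-sensing gatekeeper of the uniporter, lies on chromosome 14 from 57916280 to 57999262. It ranged from 61.2 CPM in MLL::AF9 42 to 103 CPM in MLL::ENL NO, and its group means spanned 1.30 times, less than the 1.69 times between single libraries. Letm1, an inner membrane protein of cation and proton exchange whose calcium transport is debated, lies on chromosome 5 from 33739673 to 33782817. It was at 41.9 and 60 CPM in WT, 50.1 and 68.2 CPM in Cbfb::MYH11 and between 48.2 and 55.8 CPM in the 6 MLL libraries. In CPM the MLL libraries thus lay inside the range of WT. In TPM, WT 2 was at 11.4, below MLL::AF9 47 at 17.3. For Letm1 the 95% interval over WT was −0.38 to 0.81 in Cbfb::MYH11, −0.59 to 0.50 in MLL::AF9 and −0.51 to 0.57 in MLL::ENL.

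**Figure D3:**
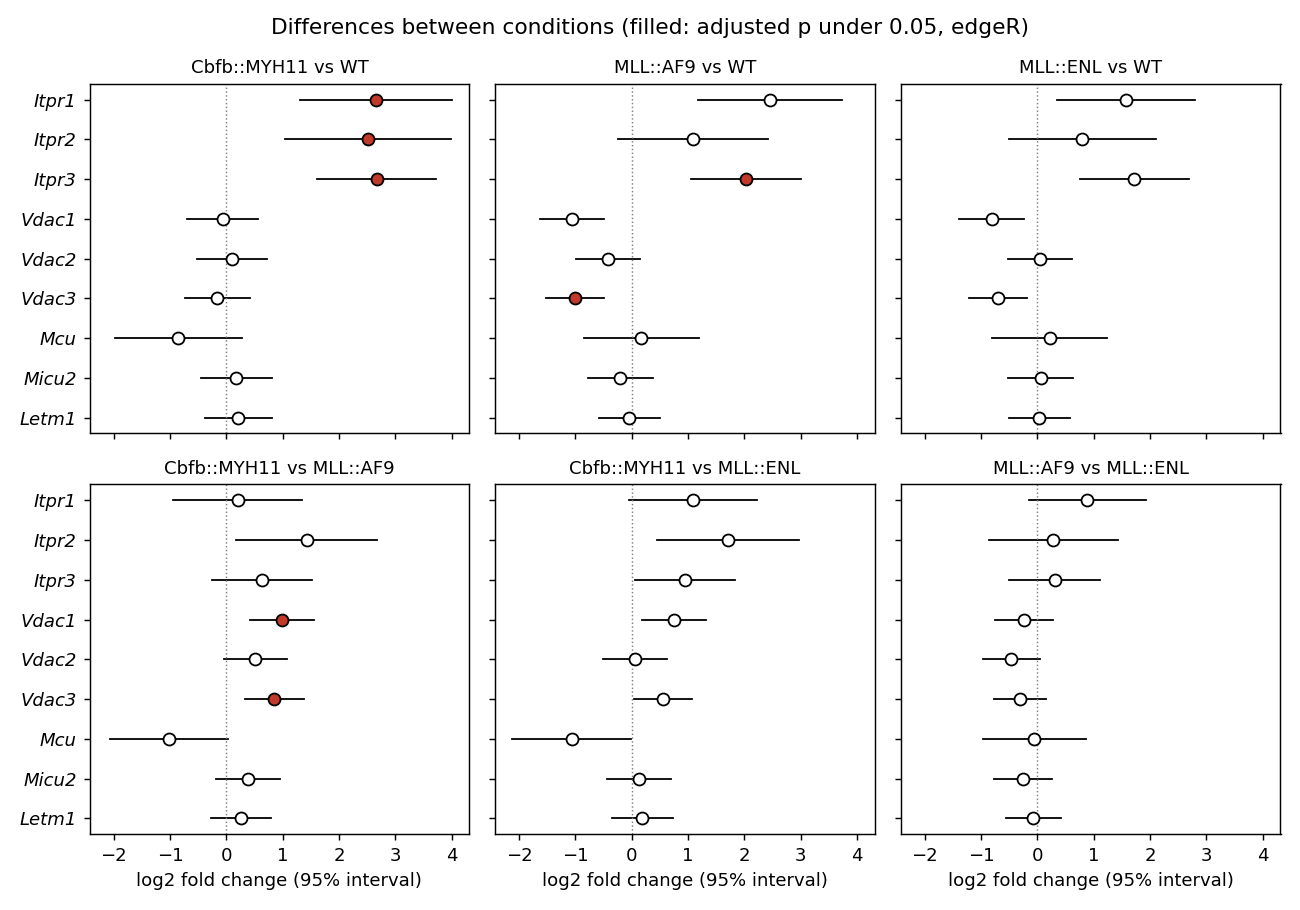
Log2 fold change (x axis) of the 9 genes in the 6 comparisons, with 95% intervals and filled points where the adjusted p from edgeR was under 0.05. The IP3 receptors lie at 2.51 to 2.67 in Cbfb::MYH11 against WT, and Vdac1 and Vdac3 are filled in Cbfb::MYH11 against MLL::AF9.

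Counted over the 9 genes, 3 were higher and none lower in Cbfb::MYH11 than in WT, where 10.5% of all genes tested passed, 3.54% higher and 6.92% lower. The count of 3 fell to 0 when WT 1 was left out, to 1 on leaving out either WT 2 or Cbfb::MYH11 30, and to 2 on leaving out Cbfb::MYH11 27, MLL::ENL RL or MLL::ENL L, or with the length offset. In MLL::AF9 against WT 1 was higher and 1 lower, with 2.88% of all genes passing, 0.807% higher and 2.08% lower, and this count was 0 with the length offset and at most 1 without any 1 library. In MLL::ENL against WT none passed by edgeR, with 4 at an unadjusted p under 0.05, while DESeq2 called 3 and limma voom none, where 2.1% of all genes passed by edgeR, 0.551% higher and 1.55% lower. These comparisons share the WT libraries. Of the 9, 2 were higher in Cbfb::MYH11 than in MLL::AF9, with 22.6% of all genes passing and 9.67% higher, so that share of the 9 is near the background, and the count was 0 without Cbfb::MYH11 27 or MLL::AF9 42 and 1 without MLL::AF9 47. In Cbfb::MYH11 against MLL::ENL none passed by edgeR (5 at an unadjusted p under 0.05, with 2 called by DESeq2 and 1 by limma voom), where 20.1% of all genes passed, 9.06% higher. In MLL::AF9 against MLL::ENL none passed (0 at an unadjusted p under 0.05, with 0 called by DESeq2 and 0 by limma voom), with 0.0134% of all genes passing.

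The libraries of the groups did not overlap for 4 of the 9 genes in Cbfb::MYH11 against WT, where this held for 60.8% of all genes. It held for 5 of 9 in MLL::AF9 against WT (41.6% of all genes) and for 3 of 9 in MLL::ENL against WT (44.3%). Between tumor models it held for 7 of 9 in Cbfb::MYH11 against MLL::AF9 (52.8%), for 5 of 9 in Cbfb::MYH11 against MLL::ENL (53.4%) and for 3 of 9 in MLL::AF9 against MLL::ENL (13.3%).

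Compared per length, VDAC transcripts were far more abundant than those of the IP3 receptors in every library. The summed TPM of the 3 VDACs ran from 189 in MLL::AF9 2 to 549 in Cbfb::MYH11 27, and that of the 3 IP3 receptors from 1.55 in WT 1 to 38.5 in Cbfb::MYH11 30. In TPM, Itpr1 took 42.7% and 46.5% of the IP3 receptor sum in WT, 40.8% and 47.2% in Cbfb::MYH11, 58.1%, 64.5% and 69.4% in MLL::AF9 and 39.8%, 73.0% and 50.1% in MLL::ENL NO, RL and L. The make-up of the family in Cbfb::MYH11 was thus within a few percentage points of that in WT. Its summed TPM was 38.5 and 22.4 in Cbfb::MYH11 30 and 27 against 1.55 and 4.92 in WT 1 and WT 2. These sums are not scaled by TMM. With that scaling, Itpr1, Itpr2 and Itpr3 were 6.33, 5.70 and 6.35 times as high in Cbfb::MYH11 as in WT. Itpr1 held the largest share in all 10 libraries. Itpr2 took 12.2% and 11.01% of the sum in MLL::AF9 47 and 42, and was 37.2% in MLL::ENL NO.

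Vdac2 took 32.9% to 38.0% of the VDAC sum in the 4 WT and Cbfb::MYH11 libraries and 42.6% to 49.9% in the 6 MLL libraries. The ranges do not overlap, but this split was chosen after its values were seen and is given without a test. Vdac1 had 31.3% to 32.0% in the first 4 libraries and 20.5% to 30.4% in the MLL libraries. Per length the pores were nearly even in WT, where Vdac3 had 33.2% and 35.2%.

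**Figure D4:**
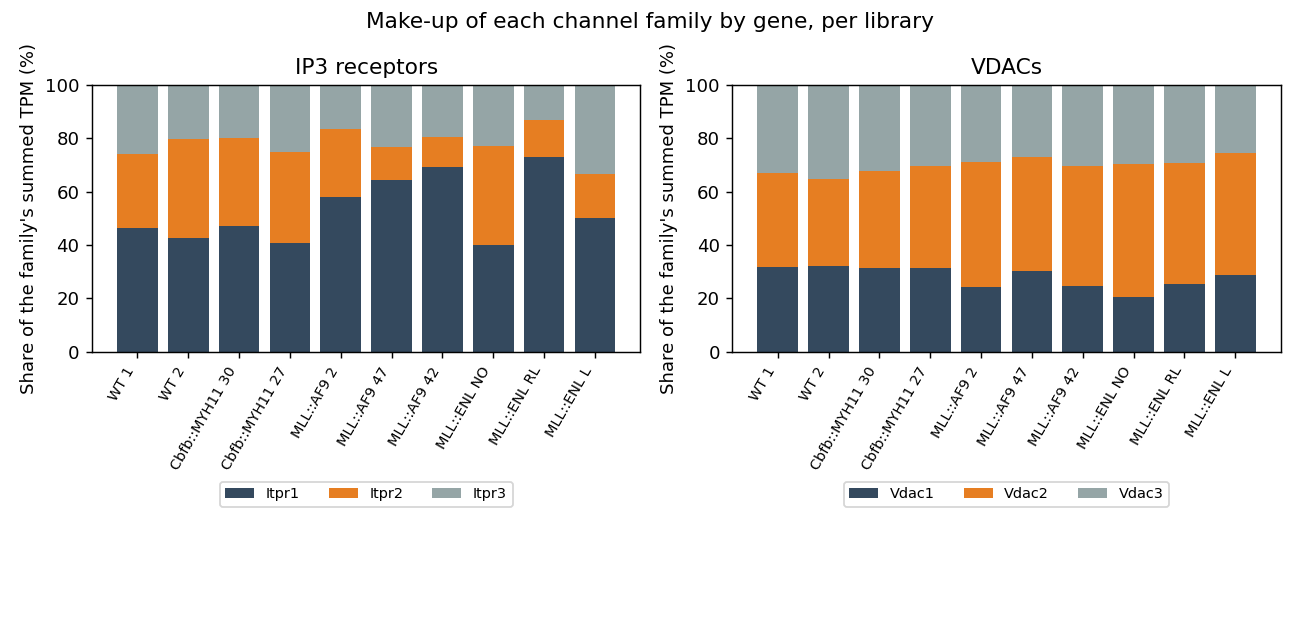
Share in percent of the summed TPM (y axis) that each gene took of its family in each of the 10 libraries (x axis), for IP3 receptors on the left and VDACs on the right. Itpr1 takes 58.1% to 69.4% in MLL::AF9, and Vdac2 takes 42.6% or more in the 6 MLL libraries.

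Within the uniporter, Micu2 transcripts stood at 3.36 and 4.02 per Mcu transcript, by TPM, in the Cbfb::MYH11 libraries and at most 2.60 in any other.

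Beyond the 9 genes, 72 genes in 8 lists of calcium handling and mitochondria were tested. Cbfb::MYH11 had 3 higher and 6 lower than WT, where 3.54% and 6.92% of all genes tested were higher and lower. In MLL::AF9 against WT 1 was lower, with 2.08% of all genes. Cbfb::MYH11 had 14 higher and 7 lower than MLL::AF9, beside 9.67% and 12.9% of all genes, and against MLL::ENL 10 were higher and 8 lower, beside 9.06% and 11%. Nothing particular to the 72 genes is read from these counts. None passed between MLL::AF9 and MLL::ENL, with 3 at an unadjusted p under 0.05 by edgeR, while DESeq2 called 1 and limma voom 0. The count of 9 against WT was 4 when WT 1 was left out and 5 when Cbfb::MYH11 27 was. Without Cbfb::MYH11 27 the 21 against MLL::AF9 were 8 and the 18 against MLL::ENL were 7, and without MLL::ENL RL those 18 were 11. The median log2 fold change of the 72 genes was 0.11 in Cbfb::MYH11 against WT, beside −0.01 over all genes tested, and 0.22 against MLL::AF9, beside −0.08.

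Among exchangers, Slc8b1, the sodium and calcium exchanger that lets calcium out of the matrix, was at 7.0 and 8.07 CPM in Cbfb::MYH11, 95.8 and 56.1 CPM in WT and between 123 and 178 CPM in the MLL tumors. It was lower in Cbfb::MYH11 than in WT (log2 fold change −3.33), MLL::AF9 (−4.07) and MLL::ENL (−4.32), with adjusted p of 0.000661, 0.000128 and 9.51e-05 from edgeR. Slc25a13, a calcium-regulated carrier of aspartate and glutamate, was likewise lower in Cbfb::MYH11, at 4.17 and 1.39 CPM against 20.6 and 24.9 CPM in WT (log2 fold change −3.02, adjusted p = 0.0307, edgeR). The Slc8b1 calls held without any 1 library, and that of Slc25a13 was lost without any 1 WT or Cbfb::MYH11 library (adjusted p up to 0.178, edgeR). Of the uniporter list, Mcur1, a regulator of the complex, was higher in Cbfb::MYH11 than in MLL::AF9 (1.12, adjusted p = 0.00943, edgeR), but not without Cbfb::MYH11 27 (adjusted p = 0.111, edgeR).

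Of 13 genes that make or break down IP3, Plcg2, a phospholipase C of blood cells that makes it, was at 25.5 and 13.7 CPM in Cbfb::MYH11 against 134 and 206 CPM in WT and 187 to 313 CPM in the MLL tumors. Its log2 fold change was −3.12 against WT and −3.81 against MLL::AF9 (adjusted p = 0.00208 and 0.000393, edgeR). Inpp5b, an inositol polyphosphate 5-phosphatase, was higher in Cbfb::MYH11 than in WT (1.24, adjusted p = 0.0109, edgeR). Plcb2, another phospholipase C of blood cells, was lower in Cbfb::MYH11 than in MLL::ENL (−1.50, adjusted p = 0.0245, edgeR). The Plcg2 calls held without any 1 library. That of Inpp5b was lost without WT 1 or either Cbfb::MYH11 library (adjusted p up to 0.0935, edgeR), and that of Plcb2 without either Cbfb::MYH11 library, MLL::ENL NO or MLL::ENL RL (up to 0.188, edgeR). Across this list 1 gene was higher and 1 lower in Cbfb::MYH11 than in WT, where 3.54% and 6.92% of all genes tested were higher and lower. The median log2 fold change over WT was 0.93 in Cbfb::MYH11, 0.94 in MLL::AF9 and 0.69 in MLL::ENL, beside −0.01, 0.08 and 0.02 over all genes tested. None of the list passed in either MLL model against WT, and the part of transcript length in these medians was not tested.

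Of the ER store, Ryr1, a ryanodine receptor and the other kind of calcium release channel, was low throughout, at 0.57 and 0.52 CPM in Cbfb::MYH11 and between 2.96 and 12.2 CPM elsewhere (log2 fold change −2.53 against WT, adjusted p = 0.0215, edgeR). In Cbfb::MYH11 it was also lower than in MLL::AF9 (−3.37, adjusted p = 0.003, edgeR) and MLL::ENL (−4.14, adjusted p = 0.00132, edgeR). Atp2a3, the calcium pump of the ER in blood cells, was lower in Cbfb::MYH11 than in MLL::AF9 (−0.97, adjusted p = 0.0338, edgeR), while Tmco1, a leak channel of the ER, was higher (0.95, adjusted p = 0.027, edgeR). The Ryr1 call against WT was lost without any 1 WT or Cbfb::MYH11 library, while those against the MLL models held without any 1 library. The Atp2a3 and Tmco1 calls were lost without either Cbfb::MYH11 library or MLL::AF9 47 or 42. That of Atp2a3 was also lost without MLL::ENL RL or L and with the length offset (adjusted p = 0.054, edgeR).

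Store-operated entry refills the ER through Orai pores. In Cbfb::MYH11 against WT, Orai1 was lower (log2 fold change −2.64, adjusted p = 0.000566, edgeR), at 15.5 and 17.8 CPM against 110 and 97.9 CPM. Orai2 was higher (1.45, adjusted p = 0.00937, edgeR), at 155 and 145 CPM against 45.6 and 63.8 CPM. Both Cbfb::MYH11 libraries were outside the range of all others for each gene. Saraf, which slows this entry, was higher in Cbfb::MYH11 than in MLL::AF9 (1.64, adjusted p = 0.0084, edgeR). The Orai1 call held without any 1 library, that of Orai2 was lost without WT 1 (adjusted p = 0.0766, edgeR), and that of Saraf without Cbfb::MYH11 27 (0.113, edgeR).

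At contacts between ER and mitochondria, Rmdn3 (PTPIP51), a tether of the outer membrane, was at 85.2 and 97.1 CPM in Cbfb::MYH11, 34.6 and 37.7 CPM in WT and 13.9 to 25.9 CPM in the MLL tumors (log2 fold change 1.33 over WT, adjusted p = 0.0285, and 2.38 over MLL::AF9, adjusted p = 0.00066, edgeR). Hspa9, the chaperone that bridges IP3 receptors and VDAC1, was higher in Cbfb::MYH11 than in MLL::AF9 (1.63, adjusted p = 0.0336, edgeR). Of 4 VDAC partners only Ppif, cyclophilin D of the permeability transition, passed, higher in Cbfb::MYH11 than in MLL::AF9 (2.45, adjusted p = 0.00342, edgeR) and MLL::ENL (2.20, adjusted p = 0.00569, edgeR). The calls of Ppif, and of Rmdn3 against MLL::AF9, held without any 1 library. The call of Rmdn3 against WT and that of Hspa9 were lost, the first without any 1 WT or Cbfb::MYH11 library (adjusted p up to 0.171, edgeR) and the second without either Cbfb::MYH11 library, MLL::AF9 2 or MLL::AF9 42 (up to 0.218, edgeR).

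**Figure D5:**
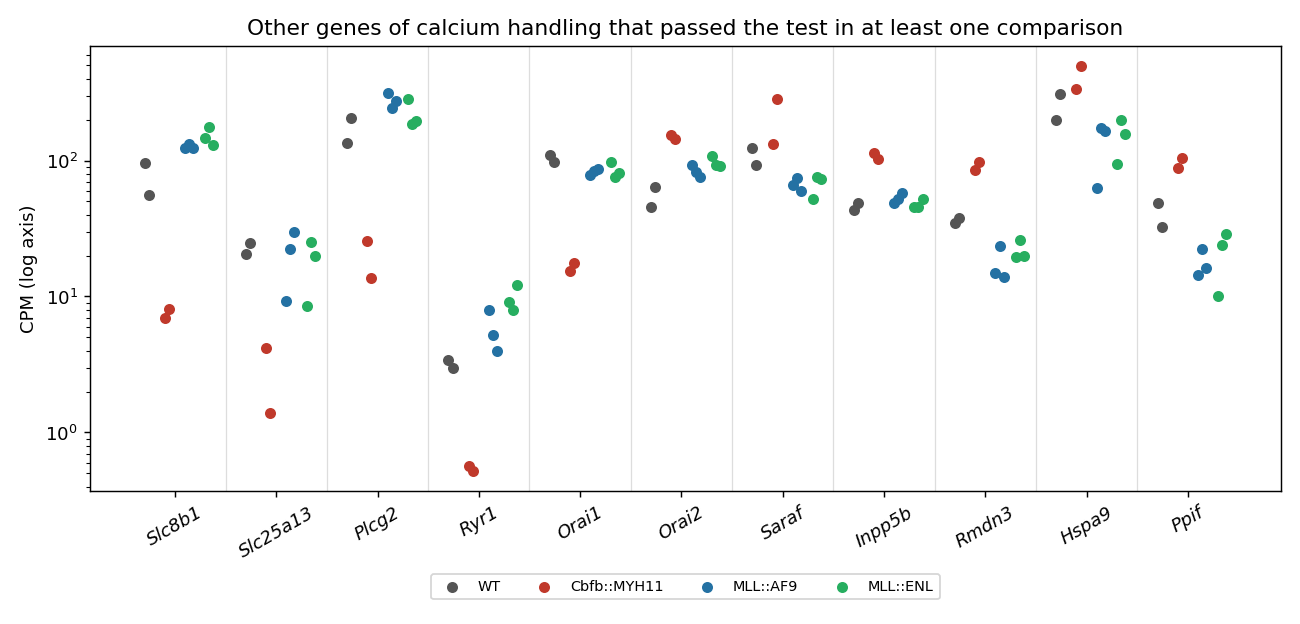
CPM on a log axis (y axis) of 11 further genes in each library, 1 point per library, colored by condition. Slc8b1, Plcg2 and Orai1 are lowest in both Cbfb::MYH11 libraries, and Orai2, Inpp5b, Rmdn3 and Ppif are highest there.

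The pattern of Vdac1 and Vdac3 can be set beside 11 general genes of mitochondrial membranes and matrix. Of these, 6 were higher in Cbfb::MYH11 than in MLL::AF9 and 4 than in MLL::ENL, where 9.67% and 9.06% of all genes were higher, and none was lower. The medians were 1.01 and 0.80, beside log2 fold changes of 1.00 and 0.75 for Vdac1 and of 0.86 and 0.55 for Vdac3. Phb2, a prohibitin of the inner membrane, was lower in MLL::AF9 than in WT (−1.37, adjusted p = 0.0324, edgeR). Tomm20, a receptor of protein import, and Hspd1, the matrix chaperonin, were higher in Cbfb::MYH11 than in MLL::AF9, by 1.44 and 1.55 (adjusted p = 0.00893 and 0.0281, edgeR). The Phb2 call was kept in 2 of 10 fits that left out a library and lost in the other 8, which include those without either WT library (adjusted p up to 0.265, edgeR). That of Tomm20 was lost without Cbfb::MYH11 27 (0.108, edgeR), and that of Hspd1 without either Cbfb::MYH11 library or MLL::AF9 42 (up to 0.144, edgeR).

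For the members that passed in a comparison, the genes with the most similar log2 CPM across the 10 libraries were found, as a description. The libraries share condition, depth and the length trend. For Itpr1 they were Atm, Scaf4 and Nfkb1 (Pearson r 0.95, 0.94 and 0.94, n = 10), and for Itpr2 they were Zfp7, Fbxw7 and Ski (0.96, 0.94 and 0.94). Itpr3 was nearest to Ikzf2, Qprt and Hdac5 (0.95, 0.94 and 0.93). Vdac1 was nearest to Phb2, Tuba1b and Wrap53 (0.99, 0.98 and 0.98), and Vdac3 to March5, Ndufv1 and Asb17os (0.98, 0.98 and 0.97). Among the members themselves, Vdac1 and Vdac3 were the most alike (r = 0.91), followed by Itpr1 and Itpr3 (r = 0.79), while Itpr1 and Itpr2 had r = 0.47.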

How the data were processed

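RNA was sequenced from 10 mice in 4 groups. Per the submitters' processing notes, FastQC, STAR and RSEM were used with mm10; their versions are not given in the sources used here. The authors deposited expected counts and TPM, which is scaled by transcript length, for 50600 entries (93 symbols are repeats). Expected counts were rounded, filtered with filterByExpr to 14875 genes, scaled by TMM and tested with edgeR 4.0.16 (R 4.3.3) in 1 quasi-likelihood fit of 10 libraries without covariates, with 6 residual degrees of freedom and Benjamini-Hochberg adjustment. The 6 pairwise contrasts of the groups were tested. Alternatives used median-of-ratios scaling, no count filter, DESeq2 1.42.0, limma voom 3.58.1, only the groups compared, no hemoglobin, S100a8, S100a9 or mitochondrial genome transcripts, each library left out, and, added after seeing the data, a lowess offset for transcript length per library. The edgeR script was tested on simulated data. All 9 genes are named. Of each list at most 3 called genes with the largest change have values, and the 3 nearest genes by r of log2(CPM + 1) are named for members that passed. Members and lists were chosen with earlier results of these data known. The values of 1 gene of the lists, and calls that rest on it alone, are not reported here.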

Additional observations from a re-analysis of the deposited data

Results flagged for a closer look

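The difference from WT was not the same in Cbfb::MYH11 and MLL::AF9 tumors for Vdac1 and Vdac3, by the direct test between these models, which is the test of that difference. Vdac1 was 1.00 higher on the log2 scale in Cbfb::MYH11 than in MLL::AF9, both Cbfb::MYH11 libraries being above all 3 MLL::AF9 libraries. Vdac3 was 0.86 higher, also in both libraries against all 3. The adjusted p were 0.0212 and 0.0262 from edgeR, and ran from 0.00218 to 0.189 and from 0.00885 to 0.221 over the alternatives. The upper ends come from the fit without Cbfb::MYH11 27, which left 1 library in that group and gave log2 fold changes of 0.78 and 0.65. Both calls were also lost without MLL::AF9 42 (adjusted p = 0.0643 and 0.0601, edgeR), and that of Vdac3 without MLL::AF9 47 (0.0557, edgeR). With only the groups compared neither passed (adjusted p = 0.0632 and 0.0699, edgeR), and without the count filter Vdac3 did not (0.0705, edgeR). Groups of 2 or 3 libraries were too small for a formal test of outlying libraries.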

How the results depend on the processing

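Of 918 recomputed fold changes of the 9 genes, 818 kept direction and side of the threshold, 44 lost and 26 gained a call, and 30 turned direction, none of them passing in either fit. Most of the 818 were uncalled in both fits, so they do not measure how stable the calls were. All 44 losses fell on the few called results, each recomputed in 17 alternatives. These were the IP3 receptors in Cbfb::MYH11 against WT, Itpr3 and Vdac3 in MLL::AF9 against WT, and Vdac1 and Vdac3 in Cbfb::MYH11 against MLL::AF9. No paired analysis was made, because each library came from a different mouse and replicate numbers do not pair them. Where an arm was left with 1 library, that library was assumed to vary like the other groups. The causes were not tested.

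With the length offset the members called were 0 in MLL::AF9 against WT and 1 in Cbfb::MYH11 against MLL::ENL, all genes called 0 in MLL::AF9 against MLL::ENL, and against WT the log2 fold changes turned to 0.15 for Vdac1 and 0.14 for Vdac3 in Cbfb::MYH11 and −0.13 for Letm1 in MLL::ENL. DESeq2 called 4, 3 and 2 members in MLL::AF9 against WT, MLL::ENL against WT and Cbfb::MYH11 against MLL::ENL. It called 2860, 1988 and 1737 of all genes against WT (Cbfb::MYH11, then MLL::AF9, then MLL::ENL) and 505 between the MLL models. Its pathway calls were 6, 6, 32 and 1 in MLL::AF9 against WT, MLL::ENL against WT, Cbfb::MYH11 against MLL::AF9 and between the MLL models. Without a count filter 1 member passed in MLL::ENL against WT and 1 in Cbfb::MYH11 against MLL::ENL, and 1031, 1005 and 299 of all genes in MLL::AF9 and MLL::ENL against WT and between the MLL models. Limma voom called 713 and 639 of all genes in MLL::AF9 and MLL::ENL against WT and 0 between the MLL models, 1 member in Cbfb::MYH11 against MLL::ENL, and turned Mcu between the MLL models to 0.11. With only the groups compared, members called were 1 in MLL::AF9 against WT (Itpr1, with Itpr3 and Vdac3 lost), 1 in Cbfb::MYH11 against MLL::AF9 (Mcu, lower, with Vdac1 and Vdac3 lost at adjusted p of 0.0632 and 0.0699 in edgeR) and 1 in Cbfb::MYH11 against MLL::ENL (Itpr2), all genes 2786, 131 and 630 against WT in the same order and 0 between the MLL models, and pathway genes 0 in MLL::AF9 against WT. By TPM the order of group means was that by CPM for 2 of the 9 genes.

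Leaving out 1 library at a time gave 0 to 3 members, 414 to 1984 of all genes and 4 to 10 pathway genes in Cbfb::MYH11 against WT, and 0 to 1, 15 to 487 and 0 to 1 in MLL::AF9 against WT. The same ranges were 0 to 0, 23 to 728 and 0 to 1 in MLL::ENL against WT, 0 to 3, 1072 to 3690 and 8 to 23 in Cbfb::MYH11 against MLL::AF9, 0 to 2, 1085 to 3453 and 7 to 22 in Cbfb::MYH11 against MLL::ENL, and 0 to 0, 0 to 142 and 0 to 0 between the MLL models. The fold changes of members that turned direction in this way ranged, against WT, from −0.27 to 0.13 (Vdac1), −0.15 to 0.32 (Vdac2), −0.37 to 0.033 (Vdac3) and −0.023 to 0.54 (Letm1) in Cbfb::MYH11, from −0.34 to 0.90 (Mcu), −0.40 to 0.0076 (Micu2) and −0.30 to 0.25 (Letm1) in MLL::AF9, and from −0.38 to 0.93 (Mcu), −0.16 to 0.25 (Micu2), −0.25 to 0.31 (Letm1) and −0.13 to 0.19 (Vdac2) in MLL::ENL. Between tumor models they ranged from −0.41 to 0.64 for Itpr1 in Cbfb::MYH11 against MLL::AF9, from −0.19 to 0.27 (Vdac2), −0.0069 to 0.31 (Micu2) and −0.049 to 0.39 (Letm1) against MLL::ENL, and from −0.42 to 0.78 (Itpr2), −0.30 to 0.53 (Mcu) and −0.0016 to 0.75 (Itpr3) between the MLL models. Itpr1 turned without Cbfb::MYH11 30, Itpr2 without MLL::AF9 2 and Itpr3 without MLL::ENL RL.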

Other observations

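Mcub, the subunit that lowers the activity of the uniporter when it replaces Mcu, varied widely within the MLL models and was not called in any comparison. In MLL::AF9 2, 47 and 42 its TPM stood at 18.5, 1.34 and 8.29, with 0.40, 4.90 and 4.55 for MLL::ENL NO, RL and L, against 1.20 and 1.27 in WT and 2.36 and 1.53 in Cbfb::MYH11. In MLL::AF9 2 it stood at 1.04 per Mcu transcript, and at 0.342 or less in every other library. MLL::AF9 2 also had the highest sums of neutrophil, B cell, and T and NK cell markers among the tumors, 155006, 1414 and 349 CPM. WT 1 and WT 2 had low Mcub at neutrophil sums of 131611 and 76322 CPM, and MLL::ENL NO had the lowest Mcub at 60510 CPM. The part of these cells in the Mcub level was not tested. Smdt1 (EMRE), the small subunit that links Mcu to its gatekeepers, was above Mcu, Micu2 and Mcub per length in every library, at 174 to 388 TPM.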
